A study of Mus musculus with 12 samples.

Results

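Major urinary protein (Mup) genes were examined in the mRNA of hepatocytes sorted from p16-Tom mice. The 10 genes Mup1, Mup3, Mup7, Mup8, Mup10, Mup11, Mup12, Mup17, Mup20 and Mup21 were taken by symbol from a table of 54839 features, in which 49 features carry a Mup symbol. The other 39 are 12 Mup genes that were not listed and 27 pseudogenes. The 10 were selected on their fold changes between these groups, in which Mup8 and Mup12 were known to lead, so the counts, fold changes and p-values below describe these genes and are no independent support. All mice were male and heterozygous for p16-CreERT2 and R26-CAG-LSL-tdTomato-WPRE on a C57BL/6 background, and all received tamoxifen, so that cells with p16Ink4a promoter activity at that time, of whatever type, became tdTomato-positive. Corn oil (vehicle) or CCl4, a hepatotoxin that injures the cells around the central vein, was given, the livers were digested with collagenase, and Tom+ and Tom- hepatocytes were collected by FACS. This gave 4 groups of 3 libraries of polyA RNA: oil Tom-, oil Tom+, CCl4 Tom- and CCl4 Tom+. The labels number the libraries of a group from 1 to 3 but do not say whether they come from separate mice, so p-values measure only the spread between these libraries.

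Mup genes encode small secreted lipocalins, barrel-shaped carrier proteins that hepatocytes release into blood and that pass through the kidney into urine. There they bind volatile pheromones and release them slowly, and Mup20, known as darcin, is itself a protein pheromone of male urine. In the male liver they are among the most abundant transcripts, and their transcription responds to growth hormone pulses, androgens, thyroid hormone and glucocorticoids.

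All 10 genes lie on the minus strand of chromosome 4 between 60066469 and 62150863 (mm10), and the family holds long runs of near-identical copies. The coding sequences of Mup1, Mup7, Mup8, Mup10, Mup11, Mup12 and Mup17 were 98.4% to 99.6% identical in pairs, with 2 to 9 differing alignment columns. Mup20 was 90.1% to 91.4% identical to these 7 genes, Mup21 83.7% to 84.8% and Mup3 82.2% to 83.4%, and Mup3 and Mup21 were 94.8% identical to each other. The following 90 bases of exon 2, given for the 10 genes because they show which copies a read can tell apart, are the stretch past the start of the coding sequence in which the 7 near-identical genes differ most. In Mup10 they are chr4:60581531-60581620, in Mup12 chr4:60740658-60740747, in Mup20 chr4:62053490-62053579, in Mup3 chr4:62086810-62086899 and in Mup21 chr4:62150205-62150294, read from the minus strand of GRCm38 (GENCODE M21), and capitals mark bases that differ from Mup10.
Mup10: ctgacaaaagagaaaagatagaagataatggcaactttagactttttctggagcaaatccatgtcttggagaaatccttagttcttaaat
Mup1: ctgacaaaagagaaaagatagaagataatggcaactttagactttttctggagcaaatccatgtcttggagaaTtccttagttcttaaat
Mup7: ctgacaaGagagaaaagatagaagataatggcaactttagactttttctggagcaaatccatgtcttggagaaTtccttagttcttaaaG
Mup8: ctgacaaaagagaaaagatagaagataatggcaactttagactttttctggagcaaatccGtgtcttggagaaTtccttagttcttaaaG
Mup11: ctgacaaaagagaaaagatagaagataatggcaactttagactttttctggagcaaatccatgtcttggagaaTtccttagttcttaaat
Mup12: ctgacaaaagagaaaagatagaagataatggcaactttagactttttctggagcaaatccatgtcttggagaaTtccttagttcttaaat
Mup17: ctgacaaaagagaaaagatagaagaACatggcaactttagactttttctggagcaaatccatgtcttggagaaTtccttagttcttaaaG
Mup20: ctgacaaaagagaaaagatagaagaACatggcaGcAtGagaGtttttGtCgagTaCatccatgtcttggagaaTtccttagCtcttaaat
Mup3: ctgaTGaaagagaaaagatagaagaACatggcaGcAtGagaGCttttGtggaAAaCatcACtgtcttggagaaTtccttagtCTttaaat
Mup21: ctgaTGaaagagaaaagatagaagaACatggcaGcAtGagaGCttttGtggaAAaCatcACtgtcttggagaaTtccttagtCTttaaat

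Mup1, Mup11 and Mup12 could not be told apart in this stretch, and neither could Mup3 and Mup21, whereas Mup20 differed from Mup10 at 12 bases and Mup3 at 18. Over the whole transcript, 3.64% (Mup7) to 21.9% (Mup17) of the 50-base windows of the 7 near-identical genes occurred in no other annotated gene, against 49.5% for Mup20, 80.7% for Mup21 and 84.4% for Mup3. At 150 bases these shares were 15.6% (Mup10) to 59.6% (Mup17) for the 7 genes, 68.9% for Mup20 and 100% for Mup3 and Mup21. The one gene that shared 150-base windows with Mup20 was the pseudogene Mup-ps19, with 31.1% of them. Of the 120 values of the 10 genes, 117 (97.5%) were not whole numbers (tolerance 0.001), beside 30.4% to 32.9% of the nonzero values of all features per library. Such values can arise from splitting reads among genes they match equally well, but the counting rule is not known and this source was not tested. The values of Mup3, Mup20 and Mup21 were not whole in all 12 libraries, so this does not single out the 7 near-identical genes. By their shared sequence, the levels of these 7 genes are uncertain one by one. The sum over all near-identical genes of the family does not depend on how reads shared only among them were divided, and it is therefore given beside the single values.

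**Figure D1:**
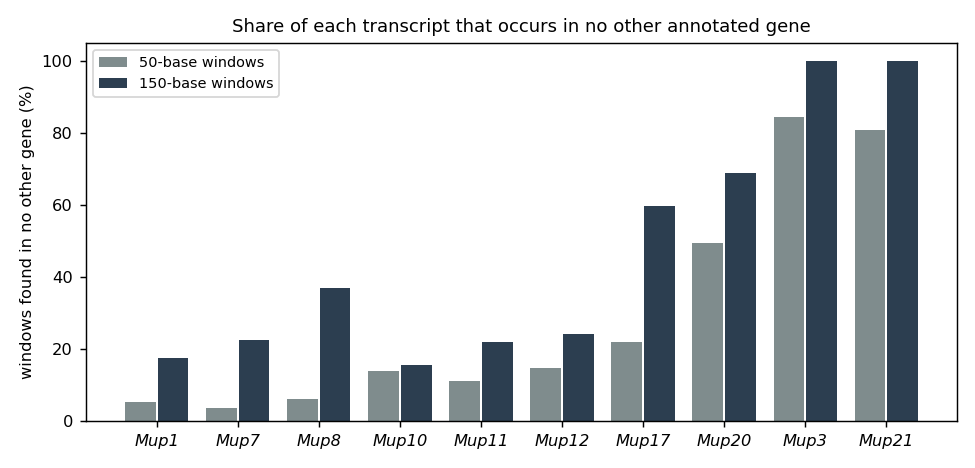
Percentage of the 50-base (grey) and 150-base (dark) windows of each Mup transcript that occur in no other annotated gene (vertical axis), for the 10 genes (horizontal axis). Mup3 and Mup21 reach 100% at 150 bases, whereas Mup1, Mup7, Mup10, Mup11 and Mup12 stay between 15.6% and 24.1%.

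Across the series, total counts per library ranged from 37568584 to 75331424, and a level of 3 counts, below which nothing was read as expression, lay at 0.0369 to 0.0829 CPM (counts scaled to library size with TMM factors, counting error only). Hepatocyte markers were abundant in all 12 libraries, with a summed level of 7 of the 8 listed genes between 96567 and 141328 CPM, against 73.8 to 200.9 CPM for 5 endothelial and 6.30 to 72.7 CPM for 6 stellate markers. The tdTomato reporter went against the label of 2 oil libraries: it was at 1794 CPM in oil Tom- replicate 1 (157 and 143 CPM in replicates 2 and 3) and at 135 CPM in oil Tom+ replicate 2 (1546 and 1225 CPM in replicates 1 and 3). In CCl4 it was at 120 to 263 CPM in Tom- and 1316 to 1369 CPM in Tom+ libraries. Results that rest on these 2 oil libraries are followed by their values without them where the call changes.

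Together, the 10 genes were far lower after CCl4 than after oil in each fraction. Their summed level was 10709, 10999 and 7324 CPM in oil Tom- libraries, 6595, 7076 and 6668 CPM in oil Tom+, 2506, 1915 and 1896 CPM in CCl4 Tom-, and 1564, 1184 and 1159 CPM in CCl4 Tom+. No CCl4 library reached the lowest oil library, and within each treatment every library labelled Tom+ was below every library labelled Tom-. The mean ± SD (n = 3) was 9677 ± 2043, 6780 ± 259, 2106 ± 347 and 1302 ± 227 CPM, in that order. CCl4 against oil, the sum was thus 4.60-fold lower in Tom- (log2 ratio -2.20) and 5.21-fold lower in Tom+ (-2.38). Tom+ against Tom-, the log2 ratio was -0.51 in oil and -0.69 in CCl4. In oil this is by label only, since Tom- replicate 1 (10709 CPM) has high and Tom+ replicate 2 (7076 CPM) low reporter. The oil libraries with high reporter were at 10709, 6595 and 6668 CPM and those with low reporter at 10999, 7324 and 7076 CPM, and these overlap. These 10 genes took 0.718% to 1.11% of all counts in oil Tom- libraries and 0.120% to 0.169% in CCl4 Tom+ libraries. The sum is a description without a test, since the genes were chosen with results of these data known. In bulk RNA, fewer cells with Mup mRNA and less Mup mRNA per cell cannot be told apart.

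**Figure D2:**
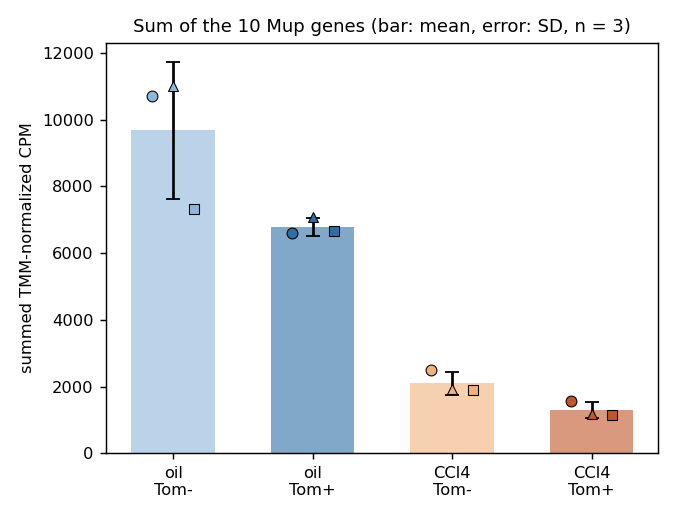
Summed TMM-normalized CPM of the 10 Mup genes (vertical axis) in the 4 groups (horizontal axis). Bars are means and error bars SD over 3 libraries, which are the points. The 6 oil libraries lie between 6595 and 10999 CPM and the 6 CCl4 libraries between 1159 and 2506 CPM.

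Per length, Mup3 was the leading one of the 10 genes in every group. In oil Tom- libraries its level was 7590 ± 1527 TPM (SD, n = 3), followed by Mup10 (3020 ± 314 TPM), Mup7 (2686 ± 988 TPM), Mup11 (2249 ± 240 TPM) and Mup12 (2234 ± 1167 TPM). Lower came Mup20 (785 ± 286 TPM), Mup17 (513 ± 245 TPM) and Mup1 (465 ± 205 TPM), and last Mup8 (92.1 ± 36.4 TPM) and Mup21 (73.1 ± 33.5 TPM). Only the steps from Mup3 to Mup10 and from Mup1 to Mup8 were larger than the sum of the SDs of the neighbours. The order was another one in CCl4 Tom- libraries: Mup3 (2611 ± 696 TPM), Mup10 (574 ± 106 TPM) and Mup20 (482 ± 22.9 TPM) led, Mup11 (221 ± 23.7 TPM), Mup12 (132 ± 31.3 TPM) and Mup7 (71.5 ± 32.9 TPM) followed, and Mup1 was at 11.3 ± 5.83 TPM and Mup8 at 2.22 ± 0.811 TPM. The order by TPM depends on the deposited lengths. Among the 7 near-identical genes these ran from 926 (Mup12) to 1584 bases (Mup1), whereas their annotated transcripts have 925 to 930 bases. By CPM in oil Tom- libraries, Mup11 (mean 1506) was above Mup7 (1180) and Mup1 (312) above Mup17 (201), the reverse of their order by TPM. By CPM over all tested genes, Mup3 ranked 38th in oil and 124th in CCl4, Mup7 145th and 4349th, and Mup20 505th and 692nd. Mup3 made up 35.7% ± 3.02 of the summed CPM of the 10 genes in oil Tom- and 59.6% ± 4.39 in CCl4 Tom- (SD, n = 3), and Mup20 made up 3.12% ± 0.674 and 9.87% ± 1.86.

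Each gene was then compared between CCl4 and oil in a quasi-likelihood model (edgeR) of 12 libraries and the 17121 genes that passed the expression filter, among them all 10 Mup genes. Calls required adjusted p < 0.05 (Benjamini-Hochberg) together with an absolute log2 fold change above 0.75. In Tom- hepatocytes 9 of the 10 were called lower and none higher (of all genes tested, 1.59% were called lower and 6.33% higher), with a median log2 fold change of -3.61. In Tom+ hepatocytes 9 were also called lower (2.34% of all genes lower, 2.9% higher), with a median of -3.72. Averaged over both fractions, a comparison added after seeing the data, 9 were called lower (2.26% of all genes). That fit counted the Tom- and Tom+ libraries of a same-numbered pair as separate replicates, although they correlate within a treatment. With same-numbered libraries as a block, although these share only a number across treatments, 9 were called lower in each fraction (1.92% of all genes in Tom- and 2.77% in Tom+). For the same 9 genes, Mup20 being the exception, the oil and CCl4 libraries did not overlap in either fraction, as for 16.8% of all genes in Tom- and 14.6% in Tom+ on the lower side. Mup8 was already a leading change of this comparison when the genes were listed, and its values are a description only.

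**Figure D3:**
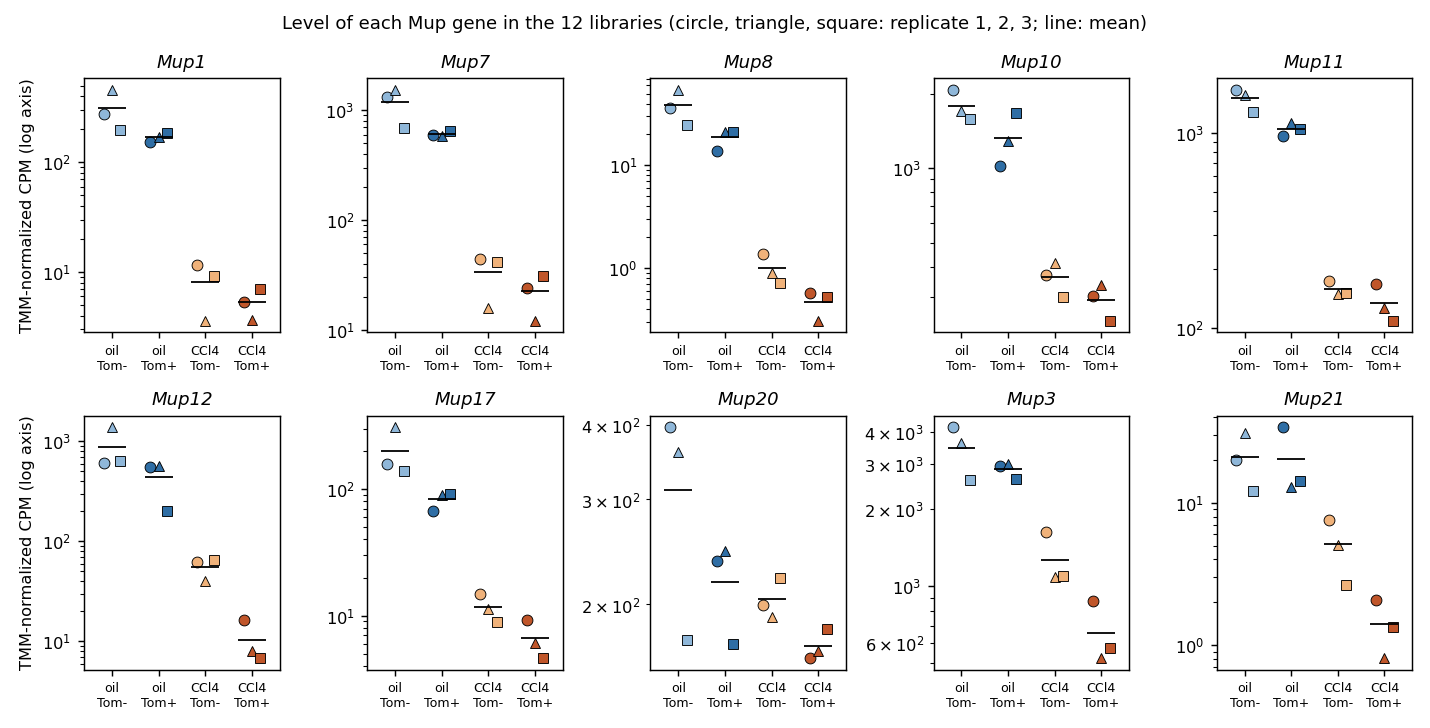
TMM-normalized CPM (vertical axis, logarithmic, its own range in each panel) of each of the 10 Mup genes in the 4 groups (horizontal axis). Points are libraries, with circle, triangle and square for replicates 1, 2 and 3, and lines are means. Every panel but that of Mup20 shows 6 CCl4 libraries below 6 oil libraries.

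Among the 7 near-identical genes the fitted fold changes spread widely. Mup8 was at 36.4, 54.2 and 24.8 CPM in oil Tom- and at 1.37, 0.885 and 0.718 CPM in CCl4 Tom-, a 39.1-fold lower level (log2 fold change -5.29, SE 0.36). In Tom+ it was at 13.8, 21.1 and 21.3 CPM after oil and at 0.566, 0.306 and 0.522 CPM after CCl4 (-5.28, SE 0.38). All its CCl4 values stayed above the level of 3 counts, and its oil and CCl4 libraries were far apart. Mup1 fell in Tom- (log2 fold change -5.25, SE 0.50) and Tom+ (-4.98, SE 0.49), and so did Mup7 (-5.13, SE 0.53, and -4.76, SE 0.52). Mup12 was at -3.97 (SE 0.57) in Tom- and -5.40 (SE 0.61) in Tom+. At the other end, Mup10 was at 2070, 1708 and 1580 CPM in oil Tom- and at 370.4, 415.1 and 301.8 CPM in CCl4 Tom-, a 4.93-fold lower level (-2.30, SE 0.19, adjusted p = 1.6e-05 by edgeR). Its Tom+ values were 1019, 1282 and 1669 CPM after oil and 303.6, 335.5 and 241.4 CPM after CCl4 (-2.17, SE 0.19, adjusted p = 2.51e-05 by edgeR). Mup11, with the smallest SE of the 10 genes, fell in Tom- (-3.25, SE 0.16) and Tom+ (-2.96, SE 0.16), as did Mup17 (-4.11, SE 0.39, and -3.62, SE 0.39). Over the 7 genes, edgeR's adjusted p-values were between 1.14e-07 and 0.00286 in Tom- and between 1.64e-07 and 0.00109 in Tom+.

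Because a read can match several copies, the near-identical genes were also added up. The family holds 16 of them with coding sequences at least 98% identical to one of the 7 genes, the 7 and 9 that were not listed. Their sum was 10357 to 15001 CPM in oil Tom-, 7524 to 8784 CPM in oil Tom+, 1495 to 1770 CPM in CCl4 Tom- and 1027 to 1302 CPM in CCl4 Tom+ libraries. CCl4 against oil it was 7.63-fold lower in Tom- (log2 ratio -2.93) and 6.97-fold lower in Tom+ (-2.80). These ratios lie between those fitted for Mup10 and Mup11 in each fraction, and those of Mup1, Mup7 and Mup8 lie below them.

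Of Mup3, Mup21 and Mup20, which have more sequence of their own, Mup3 and Mup21 were called lower in both fractions and Mup20 in neither. Mup3 was at 4155, 3605 and 2594 CPM in oil Tom- and at 1621, 1083 and 1094 CPM in CCl4 Tom-, and it fell 2.73-fold (-1.45, SE 0.22, adjusted p = 0.00177 by edgeR). In Tom+ it was at 2945, 2984 and 2611 CPM after oil and at 873, 523.5 and 575.3 CPM after CCl4, and it fell 4.33-fold (-2.11, SE 0.23, adjusted p = 0.000192 by edgeR). No CCl4 library of Mup3 reached the lowest oil library, 2594 CPM. Mup21 was at 19.9, 30.8 and 12.1 CPM in oil Tom- and at 7.56, 5.06 and 2.66 CPM in CCl4 Tom- (-2.05, SE 0.55, adjusted p = 0.0353 by edgeR). In Tom+ it was at 34.0, 12.9 and 14.3 CPM after oil and at 2.08, 0.808 and 1.34 CPM after CCl4 (-3.81, SE 0.61, adjusted p = 0.00567 by edgeR). The call of Mup21 in Tom- was lost without oil Tom- replicate 1 or 2, CCl4 Tom- replicate 2 or 3 or CCl4 Tom+ replicate 3 (adjusted p 0.0554 to 0.109 by edgeR), and without the 2 oil libraries whose reporter goes against the label (0.0815).

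Mup20, the gene of darcin, was not called in either fraction. It was at 396.4, 360.9 and 174.5 CPM in oil Tom- and at 199.8, 190.6 and 221.5 CPM in CCl4 Tom- (-0.61, SE 0.25, adjusted p = 0.117 by edgeR). In Tom+ it was at 236.7, 246.2 and 171.9 CPM after oil and at 162.5, 166.8 and 181.6 CPM after CCl4 (-0.36, SE 0.25, adjusted p = 0.415 by edgeR). The CCl4 values lay close together, between 162.5 and 221.5 CPM, and the lowest oil library of each fraction lay among or below them. Without oil Tom- replicate 3, the low one, the Tom- difference was -0.89 with an adjusted p of 0.00199 by edgeR and was called. Mup-ps19, the pseudogene that shares reads with Mup20, was not called either (-0.70, adjusted p = 0.148 in Tom- and -0.37, adjusted p = 0.505 in Tom+ by edgeR), and Mup20 and Mup-ps19 added up gave log2 ratios of -0.63 and -0.36.

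**Figure D4:**
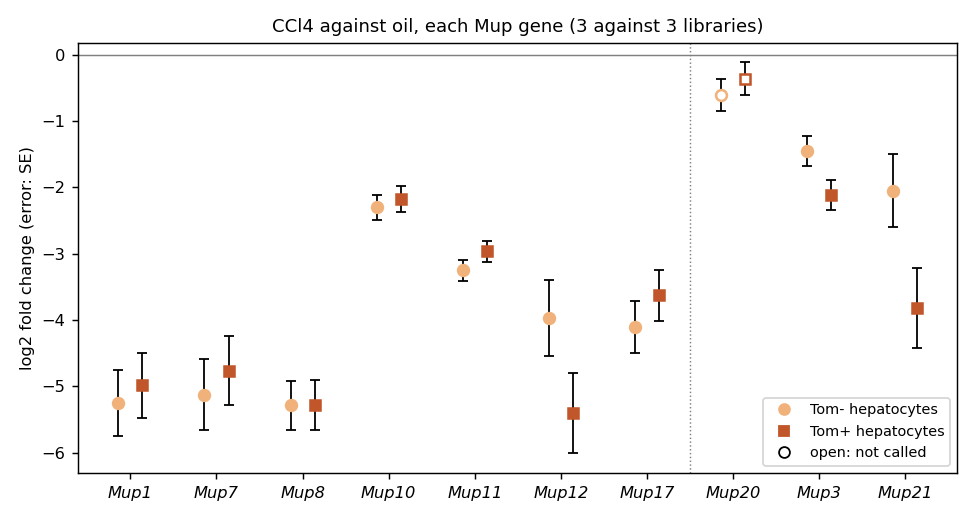
Log2 fold change of CCl4 against oil (vertical axis, error bars SE) for each of the 10 Mup genes (horizontal axis) in Tom- (circles) and Tom+ hepatocytes (squares). Filled symbols are called and open ones not, and the dotted line separates the 7 near-identical genes from Mup20, Mup3 and Mup21. Mup1, Mup7 and Mup8 lie near -5 in both fractions, and Mup20 is open at -0.61 and -0.36.

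The Mup genes that were not listed moved in the same direction. Of the 12, 10 passed the filter (not Mup4 and Mup6), and all 10 fell in each fraction, with median log2 fold changes of -2.79 in Tom- and -2.88 in Tom+. Mup22 had the highest level per length of the whole family in oil, 8922 TPM as the mean of 6 libraries against 6918 TPM for Mup3. In CCl4 it was at 1467 TPM, below Mup3 (2103 TPM), and it fell in Tom- (-2.65, SE 0.15) and Tom+ (-2.56, SE 0.15). Mup22 has no 50-base or 150-base window of its own, so its level rests on how shared reads were divided. Mup15, which is 99.6% identical to Mup2 in its coding sequence, fell in both (-4.27, SE 0.47, and -4.69, SE 0.49), and so did Mup14 (-2.79, SE 0.12, and -2.96, SE 0.12). Of the 27 pseudogenes, 10 passed the filter, and 6 fell in Tom- and 5 in Tom+. All 27 together held 0.802% of the counts of the family, against 59.5% for the 10 genes and 39.7% for the 12 that were not listed.

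Tom+ hepatocytes were next compared with Tom- hepatocytes of the same treatment. In CCl4 all 10 log2 fold changes were below 0, and 2 genes were called lower, Mup3 and Mup12 (1.74% of all genes tested were called lower, and with the block 3.25%). The libraries of 5 genes, Mup3, Mup8, Mup12, Mup20 and Mup21, did not overlap, with Tom+ the lower, as for 14.6% of all genes. Mup3 was at 1621, 1083 and 1094 CPM in Tom- and at 873, 523.5 and 575.3 CPM in Tom+, a 1.93-fold lower level (-0.95, SE 0.22, adjusted p = 0.0305 by edgeR). Mup12 was at 62.4, 39.7 and 65.0 CPM in Tom- and at 16.2, 8.03 and 6.78 CPM in Tom+, a 5.34-fold lower level (-2.42, SE 0.54). It was already known to lead this comparison when the genes were listed. The call of Mup3 was lost without CCl4 Tom- replicate 1 or 2 or CCl4 Tom+ replicate 2 or 3 (adjusted p 0.0729 to 0.124 by edgeR), and that of Mup12 without any one of the 6 CCl4 libraries or without oil Tom+ replicate 1 (0.0509 to 0.137), and without the 2 oil libraries whose reporter goes against the label (0.0511). These libraries were left out in fits without a block. With same-numbered libraries of a treatment as a block, Mup3 was at -0.96 (SE 0.086, adjusted p = 2.39e-05 by edgeR). Mup12 was at -2.48 with the block (SE 0.44, adjusted p = 0.0283 by edgeR), and both were called lower.

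The other 8 genes did not pass the test in CCl4. Mup21 was at 7.56, 5.06 and 2.66 CPM in Tom- and at 2.08, 0.808 and 1.34 CPM in Tom+ (-1.80, SE 0.60, adjusted p = 0.112 by edgeR), and Mup8 had a difference of -1.04 (SE 0.43, adjusted p = 0.177 by edgeR). DESeq2 called both, with adjusted p-values of 0.0205 and 0.0257. Mup10, Mup11 and Mup20 differed by -0.30 (SE 0.18), -0.23 (SE 0.15) and -0.26 (SE 0.25), and Mup1, Mup7 and Mup17 by -0.61 (SE 0.45), -0.59 (SE 0.46) and -0.79 (SE 0.37). The sum of the 16 near-identical genes had a log2 ratio of -0.49, against -2.42 for Mup12 alone, and 73.9% of the 150-base windows of Mup12 also occur in Mup1. Among the genes that were not listed, Mup13 (-0.79, SE 0.15) and Mup16 (-0.83, SE 0.16) were called lower, and Mup2 (-0.65, adjusted p = 0.0122 by edgeR) and Mup14 (-0.62, adjusted p = 0.0107) passed the adjusted p but not the fold.

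In oil no gene of the 17121 was called between Tom+ and Tom- (0% of all genes, and 0.169% lower with the block), the Mup genes included. With the block, Mup11 alone of the 10 passed the adjusted p, but not the fold (-0.51, SE 0.095, adjusted p = 0.0283 by edgeR). So did Mup22 (-0.54, adjusted p = 0.00886 by edgeR), Mup13 (-0.57, 0.0268) and Mup18 (-0.55, 0.0382), which were not listed. All 10 log2 fold changes were below 0, from -1.28 (Mup17, SE 0.35) to -0.04 (Mup21, SE 0.52), and 4 had an unadjusted p under 0.05 by edgeR (7% of all genes). DESeq2 and limma-voom called 0 of the 10 as well. The libraries of 6 genes, Mup1, Mup7, Mup8, Mup11, Mup12 and Mup17, did not overlap, with Tom+ the lower, as for 5.57% of all genes. Mup17 was at 156.3, 307.1 and 138.9 CPM in Tom- and at 66.5, 90.3 and 92.0 CPM in Tom+ (adjusted p = 0.505 by edgeR). Mup12 was at 607.2, 1380 and 628.9 CPM in Tom- and at 556.9, 564.7 and 201.2 CPM in Tom+, so that the lowest Tom- library was only slightly above the highest Tom+ library (-0.98, SE 0.51, adjusted p = 0.757 by edgeR). Since a Tom- library with high reporter and a Tom+ library with low reporter stand in this comparison, the fractions in oil are those of the labels only. Without these 2 libraries Mup21 turned to 0.16, and without oil Tom- replicate 3 Mup20 was called (-0.79, adjusted p = 0.0486 by edgeR).

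**Figure D5:**
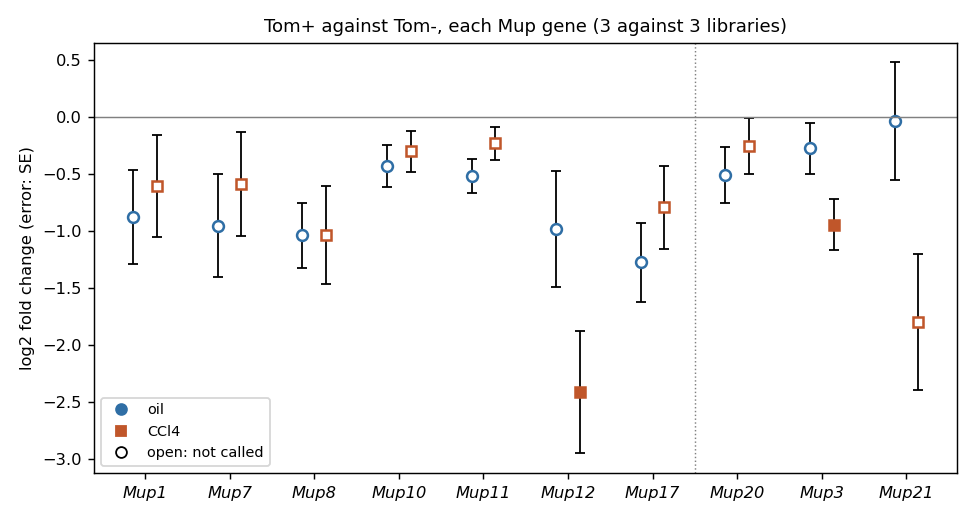
Log2 fold change of Tom+ against Tom- (vertical axis, error bars SE) for each of the 10 Mup genes (horizontal axis) in oil (circles) and CCl4 (squares). Filled symbols are called and open ones not. All 20 values are below 0 (Mup21 in oil at -0.04 turns above 0 in some alternatives), and the filled ones are Mup3 and Mup12 in CCl4.

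The difference between the Tom+ against Tom- comparisons in CCl4 and in oil was tested as an interaction, and none of the 10 genes was called (lowest adjusted p 0.270 by edgeR, 1.17% of all genes called in either direction). None of the 10 had an unadjusted p under 0.05 by edgeR, and DESeq2 and limma-voom called 0 of them. The estimates furthest from 0 were those of Mup21 (-1.77, SE 0.79), Mup12 (-1.43, SE 0.72) and Mup3 (-0.67, SE 0.31). With same-numbered libraries of a treatment as a block, Mup3 differed between the treatments by -0.70 (SE 0.12, adjusted p = 0.00284 by edgeR), which passes the adjusted p but not the fold threshold. For Mup12, the call in CCl4 and its absence in oil are not shown to differ.

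The 10 genes were also compared with each other across libraries. Over 12 libraries Pearson's r of log2 CPM was between 0.908 and 0.998 for the 21 pairs of near-identical genes and between 0.578 and 0.681 for the 9 pairs with Mup20. After the group means were taken out, r was between -0.446 and 0.946 for the near-identical pairs, the highest being Mup1 with Mup7, and between -0.0658 and 0.503 for the pairs with Mup20, which lies inside that range. These pairs share libraries and much of their sequence, and r is given as a description. Outside the family, the genes whose log2 CPM was most like that of the log2 sum, of 13039 genes with a mean of at least 1 CPM, were Wdr81 (r = 0.980), C730027H18Rik (0.975), Cyp2c23 (0.969), Hectd2os (0.965) and Cyp7b1 (0.965). This r does not measure the size of a change. Wdr81 was at 86.4 and 77.7 CPM in oil Tom- and Tom+ and at 60.5 and 54.8 CPM in CCl4. Cyp7b1, an oxysterol hydroxylase, was at 359 and 346 CPM in oil Tom- and Tom+ and at 96.2 and 65.1 CPM in CCl4.

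Genes related to the Mup genes by hormone control were read from lists. Of 11 genes with higher expression in the male than the female liver, 10 were tested, and 7 fell in Tom- and 4 in Tom+ after CCl4, with none higher. Elovl3, a fatty acid elongase, fell in Tom+ (-3.92, SE 0.58). Its CCl4 Tom+ libraries, at 0.0985, 0.0873 and 0.125 CPM, lay close to the level of 3 counts (0.0369, 0.0655 and 0.0626 CPM). In Tom-, where its 3 CCl4 libraries were under 3 counts, Elovl3 was at least 72.0-fold lower against the mean level of 3 counts per library. Selenbp2 fell in Tom- and Tom+ (-3.02, SE 0.34, and -3.73, SE 0.35), as did Slco1a1, an organic anion transporter (-3.10, SE 0.43, and -2.63, SE 0.42). The list had medians of -3.06 and -2.28 (the same with genes under 3 counts set to their bound), beside -3.61 and -3.72 for the Mup genes. None of the 10 was called between Tom+ and Tom- in CCl4, where 3 of 10 were below 0. Of 14 genes with higher expression in the female liver, 3 rose and 2 fell in each fraction: the sulfotransferase Sult2a1 rose in Tom- (5.74, SE 0.53) and Tom+ (5.61, SE 0.53).

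Of 14 genes of the hormone signalling that acts on Mup genes, none passed both thresholds in either fraction. At an unadjusted p under 0.05 there were 4 of 14 in Tom- and 7 of 14 in Tom+ by edgeR, beside 31.5% and 24.4% of all genes tested, and 9 and 12 of the 14 were below 0. The growth hormone receptor Ghr differed by -0.42 (SE 0.10, adjusted p = 0.0131 by edgeR) in Tom- and -0.25 (SE 0.10, 0.134) in Tom+, Stat5b, which carries its signal to the nucleus, by -0.52 (SE 0.16, 0.0386) and -0.51 (SE 0.16, 0.0586), and the glucocorticoid receptor Nr3c1 by -0.43 (SE 0.11, 0.0182) and -0.41 (SE 0.11, 0.0336). Igfals, a subunit of the circulating IGF complex, differed by 0.32 (SE 0.15, 0.161) in Tom- and -0.54 (SE 0.15, 0.0358) in Tom+. These are the genes with an adjusted p under 0.05 in either fraction. Bcl6, not called, had the lowest estimate of the list in each fraction, -1.06 (SE 0.67, adjusted p = 0.315 by edgeR) in Tom- and -1.85 in Tom+. Its Tom+ libraries, at 17.5, 21.2 and 39.0 CPM after oil and 4.95, 11.3 and 5.43 CPM after CCl4, did not overlap. On the other side, Cish, a feedback inhibitor of this signalling, was at 0.75 (SE 0.28, adjusted p = 0.0912 by edgeR) in Tom-, and the kinase Jak2 was at 0.31 (SE 0.11, 0.0927) in Tom+. Of 10 other lipocalin genes, 9 were tested. Ptgds, a prostaglandin D synthase, rose in Tom- (0.87, SE 0.22) and fell in Tom+ (-1.80, SE 0.23), and Obp2a, an odorant-binding protein, fell in Tom+ (-1.86, SE 0.31).

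Markers of other cells and of the lobule's zones moved with the same comparisons, and their part in the Mup results was not tested. After CCl4, 5 of 5 endothelial and 5 of 6 stellate markers rose in Tom-, and 0 of 5 and 4 of 6 in Tom+. The summed endothelial markers were at 73.8 to 113.5 CPM in oil Tom- and 185.3 to 200.9 CPM in CCl4 Tom- libraries, the stellate ones at 6.30 to 12.7 CPM and 45.1 to 61.5 CPM, and no marker of either list was at 0 in all libraries. Of 5 Kupffer cell and macrophage markers 0 were called in either fraction, also at an unadjusted p under 0.05 by edgeR, whereas 5 rose in Tom- with a block of same-numbered libraries, which share only a number across treatments. Their sum was at 13.6 to 65.2 CPM in oil Tom- and 78.0 to 106.2 CPM in CCl4 Tom- libraries. The summed hepatocyte markers were at 96567 to 126352 CPM in oil Tom- and at 129861 to 141328 CPM in CCl4 Tom-. In Tom+ they were at 114062 to 124373 CPM after oil and at 102167 to 113943 CPM after CCl4. Most of this sum is Alb, with means of 85844 CPM in oil Tom- and 114685 CPM in CCl4 Tom-. Of the 7 markers, 5 had log2 fold changes below 0 in each fraction (median -0.19 in Tom- and -0.16 in Tom+). In Tom+ after CCl4, 7 of 10 genes of zone 1, the periportal zone, fell and 6 of 10 genes of zone 3, the pericentral zone, rose, whereas in Tom- 0 zone 1 genes and 1 zone 3 gene (Oat) fell. In CCl4, 5 of 10 zone 1 genes and 3 of 5 endothelial markers fell in Tom+ against Tom- (with the block of same-numbered libraries, 6 zone 1 genes fell and 7 of 10 zone 3 genes rose, beside 0.736% of all genes called higher). In oil no zone 1 or zone 3 gene was called between the fractions, but all 10 zone 3 genes were below 0 in Tom+ against Tom- (median -0.98), and 4 of them fell with the block.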

How the data were processed

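Bulk polyA, strand-specific RNA-seq of 12 libraries was used, and groups and replicate numbers were taken from the labels. The authors processed reads with fastp (v0.23.2) and used HISAT2 (v2.1.0) with the mm10 build, and the table the authors deposited gives expected counts that are not normalized, beside gene positions and lengths. The counting program and its handling of shared reads are not given in the sources used here. The design had assumed whole counts, so the values were rounded. Of the features, 54723 (99.8%) matched a symbol.

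Counts were tested with edgeR (v4.0.16; TMM, filterByExpr, robust quasi-likelihood) in R (v4.3.3), Benjamini-Hochberg adjusted over 17121 genes. Standard errors are the log2 fold change divided by the root of F. TPM used the deposited lengths. Identities come from global alignments (Biopython v1.88), the printed stretch from MAFFT (v7.526), and figures from Python (v3.11.15) with matplotlib (v3.10.9). Sequences are GENCODE M21 transcripts (GRCm38). Alternatives were RLE or upper-quartile factors, no filter or 10 counts in every library, DESeq2 (v1.42.0), limma-voom (v3.58.1) on values not rounded, the libraries of the contrast alone, the adjusted p alone, a replicate block, and leaving out libraries. Total counts of 37568584 to 75331424 set the precision. The test was checked on simulated data.

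The genes, lists and tests were chosen with earlier results of these data known. Named genes are the 10 Mup genes, other Mup genes of at least 1 CPM, up to 4 called genes of each list, the hormone signalling genes named as examples, and the 5 genes most like the sum. Of these the hormone signalling genes were picked after their values were seen, as was CCl4 against oil averaged over both fractions as an alternative.

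Within a treatment, the deviations of same-numbered Tom+ and Tom- libraries from their group means correlated at 0.349 to 0.446 in oil and 0.402 to 0.616 in CCl4 over 12955 genes, so the replicate numbers in the labels were taken to pair them.

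Some results of the gene lists are not reported here.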

Additional observations from a re-analysis of the deposited data

How the results depend on the processing

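For CCl4 against oil, 9 of the 10 Mup genes were called under each alternative to within 1.5 times (8 to 10 in Tom- and 9 in Tom+ when single libraries were left out; 9 with the fractions averaged, which was added once the data had been seen). In Tom+ no gene's call changed, and in Tom- those of Mup21 (lost under 9 of 21 alternatives, among them no filter, limma-voom and the libraries of the contrast alone) and Mup20 did.

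For Tom+ against Tom- in CCl4, where 2 were called, the number was 0 with no filter, 4 with DESeq2, 1 with the libraries of the contrast alone, 1 without the 2 oil libraries whose reporter goes against the label, and 0 to 2 when single libraries were left out. Without a filter 27185 genes were tested instead of 17121; the cause of the other changes was not tested. In oil it was 0 to 1 when single libraries were left out. Mup21 in oil (-0.04) lay between -0.63 and 0.35 in these and turned to 0.16 without the 2 oil libraries. The interaction called 0 under each alternative.

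The replicate block changed no call of the 10 genes: 9 and 9 were called lower for CCl4 against oil, 2 for Tom+ against Tom- in CCl4 and 0 in oil. Across treatments same-numbered libraries shared only a number. Under this pairing the sum had log2 ratios of -2.19, -2.39, -0.69 and -0.49 (CCl4 against oil in Tom- and Tom+, Tom+ against Tom- in CCl4 and oil).

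The log2 ratio of the sum kept its direction and moved by less than 1 SD under each alternative. When single libraries were left out it was -2.37 to -2.10 and -2.53 to -2.30 for CCl4 against oil in Tom- and Tom+, -0.85 to -0.55 for Tom+ against Tom- in CCl4 and -0.68 to -0.41 in oil. Sequence shared between copies limits the single values of the 7 near-identical genes, and depth limits those of low genes such as Mup8 after CCl4.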
